A study of Mus musculus with 4 samples.

Results

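The kinesin genes were followed in 4 mouse brain sections, as all listed genes whose symbol begins with Kif or Klc followed by a digit. The rule found 41 of the 19465 genes listed. Of these, 19 are counted here as transport kinesins (the kinesin-1 heavy and light chains, kinesin-2, the vesicle-carrying kinesin-3 group and the neuronal kinesin-4 pair), 9 as mitotic kinesins and 13 as other members. The last class holds motors of cilia and microtubule ends and Kif1bp, which matches the rule by its older symbol but encodes a kinesin-binding protein (RefSeq symbol Kifbp) and no motor.

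Kinesins are motor proteins that walk along microtubules, most of them towards the plus end, and use ATP for each step. In neurons they carry vesicles, mitochondria and cytoskeletal proteins from the cell body into axons and dendrites, and mutations of the heavy chain Kif5a cause inherited motor neuron disease. Mitotic kinesins build the spindle and move chromosomes in dividing cells, so adult neurons need little of them.

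The sections came from 2 control and 2 rNLS8 samples, all from mice 11 weeks old and all 3 weeks after withdrawal of doxycycline (Dox), a treatment that the labels give to the controls too. In rNLS8 mice the human NEFH promoter, which is active in many neurons but not in glia, drives a Dox-controlled human TDP-43 that lacks its nuclear localisation signal. The labels name the other genotype only as Control. Paraffin sections of 5 µm were assayed on Visium spots, each a small area of tissue with RNA from several cells, and spots with at least 500 UMI (counted RNA molecules) were kept.

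The kept spots numbered 2655 to 3810 per section and held 17627535 to 28055286 UMI, with a median of 5364 to 9776 UMI per spot that was highest in rNLS8 replicate 1. The replicates were not duplicates of each other, with a chi-square per degree of freedom of 46.16 between the control sections and 18.45 between the rNLS8 sections. By their labels, each group has 1 female section, replicate 1, and 1 male section, replicate 2. Y-linked genes summed to 0 and 107.3 CPM (counts per 1000000 UMI) in the control sections and to 136.7 and 139.1 CPM in the rNLS8 sections, so the section labelled rNLS8 replicate 1 went against its sex label. Control replicate 1 was therefore the only section without Y-linked RNA, and the folds of Kif5b, Kif3a and Kif11, each low in that section, are also given without it. The row named Tardbp, the gene of TDP-43, held 0 UMI in both control sections and 197 and 138 UMI in the rNLS8 sections. The control sections differ in sex by label and by Y-linked RNA, so they come from different animals. The rNLS8 sections differ in sex by label but not by Y-linked RNA, and no label states the number of animals. Every p-value rests on section-to-section spread alone. In control this spread includes a difference of animal and sex, and in rNLS8 it may be technical.

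Kinesin genes took 0.391%, 0.392%, 0.424% and 0.433% of the UMI of control replicates 1 and 2 and rNLS8 replicates 1 and 2, the order used for all values that follow. Levels are CPM after TMM scaling, which corrects the totals for composition, and each fold is the log2 difference of rNLS8 against control, with its standard error (SE), from edgeR's quasi-likelihood test over all genes with Benjamini-Hochberg adjustment. A gene was called at an adjusted p under 0.05. Each probe captures its own gene with its own efficiency, so levels are compared between sections and not between genes. In these summed spots, fewer cells of a type and less RNA per cell cannot be told apart.

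In whole sections no kinesin was called. Of the 41 members, 33 passed the filter on low counts, and edgeR called 0 of them, as it called 0 of 13444 genes (0%). At an unadjusted p under 0.05 stood 8 members, Kif1bp, Kif17, Kif18a, Klc3, Kif3c, Kif21b, Klc2 and Klc4, beside 2093 of all genes, while DESeq2 called 1 member, Kif1bp, and 519 genes in all. The rNLS8 and control sections did not overlap for 20 members, 11 higher and 9 lower in rNLS8, where 52.1% of all tested genes did not overlap. The 19 transport members had 10 positive and 9 negative folds with a median of 0.08, against 0.02 over all genes. Leaving out control replicate 2 moved the count to 7 called members (Kif21b, Kif17, Klc3, Kif1bp, Kif3a, Kif3c and Kif5b), while 13.5% of all genes were called.

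Summed over the 19 transport members, the level was 3576, 3358, 3607 and 3675 CPM. Both rNLS8 sections stood above both controls, by 0.07 on the log2 scale, less than the gap between the controls, and the exact two-sided permutation p was 0.33, the smallest that 4 sections allow. Scaled to the plain UMI total instead, the sums were 3299, 3327, 3746 and 3867 CPM, a log2 difference of 0.20, so the size of this difference depends on the scaling. With TMM scaling it was 0.12 without control replicate 1 and 0.026 without control replicate 2. In cortex the TMM-scaled sums were 3864, 3779, 3856 and 3647 CPM, with overlapping groups. The cortical log2 difference was -0.027, and 0.12 with the plain total. The sum adds probes of unlike efficiency, and Kif5a gave 20733 of its 62699 UMI in control replicate 1.

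The kinesin-1 heavy chains Kif5a, Kif5b and Kif5c differed from each other in how they lay across the sections. Kif5a, the neuronal chain that carries neurofilaments among other cargo, stood at 1183, 832, 1136 and 1244 CPM. The groups overlapped, since control replicate 1 was as high as the rNLS8 sections, and the fold was 0.24 (SE 0.21, adjusted p = 0.590). Kif5c, the other neuron-enriched chain, stood at 493, 669, 530 and 497 CPM, with control replicate 2 alone above the rest (fold -0.18, SE 0.19, adjusted p = 0.666).

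Kif5b, the heavy chain found in most cell types, stood at 5.76, 31.6, 47.6 and 43.7 CPM. Control replicate 1 lay far below the other 3 sections, and both rNLS8 sections lay above control replicate 2. The fold of 1.28 had an SE of 0.67 and an adjusted p of 0.399. Control replicate 2 exceeded control replicate 1 by 2.36 on the log2 scale. An excess of that size in the same direction was reached by 21 of 12521 genes (0.168%), and gaps in the other direction were not counted. Kif5b was thus among the genes that stood highest in control replicate 2 relative to control replicate 1. The fold was 0.53 without control replicate 1 (adjusted p = 0.175) and 2.97 without control replicate 2, where it was called (adjusted p = 0.032).

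**Figure D1:**
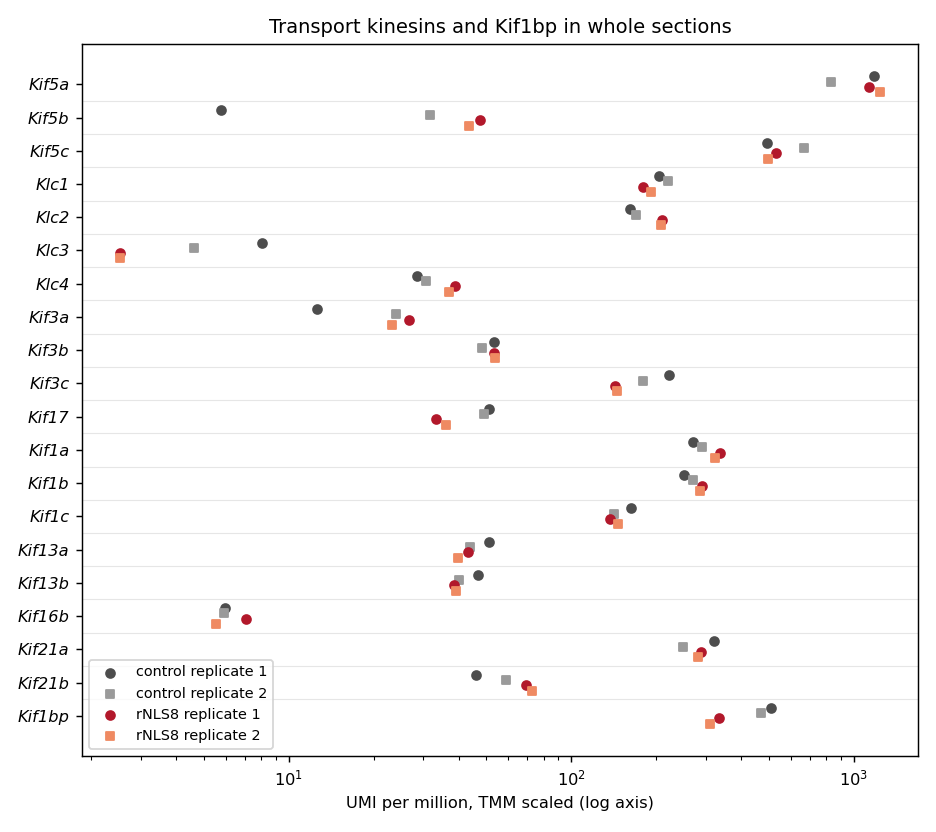
Level of the 19 transport kinesins and Kif1bp in whole sections, in TMM-scaled CPM on a log axis, with 1 point per section and colour by group. Kif5b in control replicate 1 lies alone at 5.76 CPM against 31.6 to 47.6 in the other sections, and the rNLS8 points of Kif1bp, Kif3c, Kif17 and Klc3 lie below both control points.

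Kinesin light chains link the heavy chains to cargo. Klc2 was at 161, 170, 209 and 207 CPM and Klc4 at 28.5, 30.6, 38.9 and 37.0 CPM. For both the rNLS8 sections lay close together above the controls, with folds of 0.33 (SE 0.13, adjusted p = 0.305) and 0.36 (SE 0.15, adjusted p = 0.315). Klc1 was at 204, 219, 179 and 191 CPM, lower in rNLS8 without overlap (fold -0.19, SE 0.13, adjusted p = 0.509). Klc3, best known from sperm and sparse here, had 8.04, 4.61, 2.54 and 2.53 CPM. Both rNLS8 sections were below both controls, which themselves differed (fold -1.31, SE 0.36, adjusted p = 0.216).

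The kinesin-2 motors serve cilia and dendritic and axonal transport. Kif3a and Kif3b, partners in the motor that builds cilia, were at 12.6, 24, 26.6 and 23.2 CPM and at 53.1, 48.3, 53.5 and 53.8 CPM. Kif3a was low in control replicate 1 alone (fold 0.44, SE 0.31, adjusted p = 0.517; 0.057 without control replicate 1 and 0.97 without control replicate 2, where it was called), and Kif3b hardly varied (fold 0.08, SE 0.14, adjusted p = 0.804). Kif3c, which pairs with Kif3b in neurons, was at 223, 180, 143 and 145 CPM, and Kif17, which carries NMDA receptor subunits into dendrites, at 51.4, 49.3, 33.1 and 36.2 CPM. Both were lower in the rNLS8 sections without overlap, with folds of -0.48 (SE 0.16, adjusted p = 0.256) and -0.54 (SE 0.14, adjusted p = 0.208). Leaving out control replicate 2 was the single omission under which either was called.

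Among the kinesin-3 motors, Kif1a, which moves synaptic vesicle precursors, was at 271, 290, 337 and 324 CPM, and Kif1b, which moves synaptic vesicle precursors and mitochondria, at 250, 271, 290 and 285 CPM. Both were higher in rNLS8 without overlap, by 0.24 (SE 0.13, adjusted p = 0.427) and 0.14 (SE 0.13, adjusted p = 0.626). Kif1c was at 163, 142, 137 and 147 CPM with overlapping groups. Kif13a, a motor of endosomal vesicles, was at 51.1, 43.8, 43.0 and 39.8 CPM, and Kif13b at 46.7, 40.1, 38.6 and 39.1 CPM. Both lay lower in rNLS8 by narrow margins, with folds of -0.20 (SE 0.15) and -0.16 (SE 0.15). The endosome motor Kif16b was at 5.93, 5.92, 7.07 and 5.55 CPM, also overlapping.

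The kinesin-4 motors Kif21a and Kif21b restrain microtubule growth in neurons. Kif21a was at 320, 248, 287 and 280 CPM, with control sections on both sides of the rNLS8 sections and no net difference (fold -0.00, SE 0.17). Kif21b was at 45.9, 58.8, 69.0 and 72.7 CPM, higher in both rNLS8 sections (fold 0.43, SE 0.17, adjusted p = 0.301), though the controls differed by more than control replicate 2 and rNLS8 replicate 1 did.

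Kif1bp had the smallest adjusted p of all members. Its protein binds the motor domains of several kinesins and keeps them off microtubules. In whole sections it stood at 508, 470, 334 and 310 CPM, with each rNLS8 section well below each control (fold -0.60, SE 0.14, adjusted p = 0.184 in edgeR and 0.0200 in DESeq2). Its fold was negative in each of the 5 regions tested, and it was called lower in the largest cluster of cortical spots.

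Spots were grouped by Leiden clustering without the kinesins. The cortex joined 4 clusters by fixed markers of cortical layers and claustrum, and held 793 to 1120 spots per section. The other regions tested were striatum (375 to 798 spots), basal forebrain and preoptic area (79 to 456 spots), fibre tracts (88 to 176 spots) and meninges and vessels (up to 327 spots). The ependyma with choroid plexus, at 22 to 52 spots, was too small to test. The striatum consisted of clusters 2 and 8, of which cluster 8 held 391 of 712 spots in control replicate 2 and 62 of 375 in rNLS8 replicate 2. Different clusters thus held most of the striatum in different sections. Low-count spots, 568 to 1119 per section, stayed unnamed.

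As a description without a test, the members had distinct regional profiles. Each value was set against the same gene's level in its own section, so probe efficiency cancels, over the 32 members with at least 100 UMI. In fibre tracts 11 members were above their section's level in all 4 sections, in cortex 9, in ependyma 8, in striatum 4, in basal forebrain 3 and in meninges 2. The cortical 9 were Kif5c, Klc1, Klc2, Kif3b, Kif3c, Kif1a, Kif1b, Kif21a and Kif1bp, all but the last of them transport kinesins. Klc2 had the clearest cortical excess, at 1.18 to 1.30 times its section's level.

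In the fibre tracts, where myelin genes dominate, Kif5a stood at 1.77 to 2.29, Kif13a at 1.98 to 2.29, Kif13b at 2.17 to 2.64 and Kif1c at 1.60 to 2.05 times the section's level. Kif13b is known for a part in myelination. The rest of the 11 members above their section's level in all 4 sections were Kif1b, Kif5b, Kif21b, Kif19a, Kif11, Kif22 and Kif23. Of these, Kif11, Kif22 and Kif23 had only 1 to 7 UMI per section there. Klc1, Klc2, Kif3c and Kif17 were below their section's level in the fibre tracts of all 4 sections. In the striatum Kif17 (1.34 to 1.52), Kif26b (1.32 to 1.77), Kif27 (1.27 to 1.67) and Klc3 were above it.

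Several motors of cilia were above their section's level in the ependyma, the ciliated lining of the ventricles, and others were not; those named here were chosen after their values were seen. Kif19a, which shortens ciliary microtubules, was 5.29 to 8.69 times its section's level there, from 9, 17, 37 and 15 UMI. As given above, it exceeded its section's level in the fibre tracts too, as did Kif22 and Kif23. Kif6, Kif9, Kif24 and Kif27, which act in cilia or at centrioles, were above their section's level in all 4 sections too, each from 3 to 17 UMI per section. Kif3a did so too (1.10 to 1.33), but its partner Kif3b (0.36 to 1.13) and Kif17 (0.36 to 1.37) did not. The mitotic Kif22 and Kif23 also lay above it, from 3 to 9 UMI per section, and the ependymal cluster had Mki67, a proliferation gene, among its leading genes.

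In the cortex 29 members passed the filter and edgeR again called 0 of them, where 1.07% of 12311 genes were called. At an unadjusted p under 0.05 stood 7 members and 2553 of all genes. DESeq2 called 1 member, Kif1bp, and 721 genes, and gave no adjusted p for 3 members. Of the 29, 20 did not overlap between the groups, 10 in each direction, against 55.6% of all genes. The transport members had a median fold of 0.05, with 11 positive and 8 negative. Leaving out control replicate 2 gave 7 called members (Kif21b, Klc3, Kif9, Kif1bp, Kif3a, Kif3c and Kif5b) with 30.7% of all genes, and leaving out control replicate 1 gave 2 (Kif5c and Kif1bp) with 6.62% of all genes.

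Cortical Kif1bp stood at 598, 536, 338 and 316 CPM. The rNLS8 sections lay far below the controls, and the fold of -0.79 (SE 0.14) had an adjusted p of 0.0571, just short of the threshold. Cortical Kif5b stood at 4.15, 28.1, 46.0 and 41.6 CPM, in the same order as in whole sections. Its fold was 1.42 (SE 0.65, adjusted p = 0.276), 0.64 without control replicate 1 and 3.37 without control replicate 2. Cortical Kif5a stood at 1285, 946, 1184 and 1101 CPM, with the groups overlapping fully (fold 0.03, SE 0.18, adjusted p = 0.937). Kif3c at 250, 202, 157 and 164 CPM and Kif17 at 46.1, 46.8, 28.3 and 36.0 CPM lay lower in rNLS8 without overlap, as in whole sections, with folds of -0.50 (SE 0.16, adjusted p = 0.151) and -0.53 (SE 0.18, adjusted p = 0.162). Kif2a, which takes microtubule ends apart, was at 71.2, 71.7, 50.6 and 58.7 CPM, also below both controls (fold -0.39, SE 0.15, adjusted p = 0.214).

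Cluster 3 was the largest cortical cluster, with 377 to 486 spots per section. It was led by Trbc2, Cst7, Myl4, H60b, Cxcl10, Vxn, Adra1d, Ovol2, Kcng4 and Fezf2, so immune genes such as Cst7 and Cxcl10 lead it beside the deep-layer gene Fezf2. Kif1bp had 2023, 2174, 1697 and 1139 UMI there, or 593, 542, 331 and 300 CPM. Both rNLS8 sections lay well below both controls, and edgeR called it lower (fold -0.85, SE 0.15, adjusted p = 0.025), the single member called of 26 tested, where 4.1% of all genes were called. The call was lost without rNLS8 replicate 1 (fold -0.92, adjusted p = 0.101) and without rNLS8 replicate 2 (fold -0.78, adjusted p = 0.343), each of which leaves 1 rNLS8 section that is assumed to vary like the controls. Summed markers of excitatory neurons were at 9644 and 8468 CPM in the control sections of this cluster and at 6510 and 6803 CPM in rNLS8, with 2 of 5 markers lower without overlap. Summed microglial markers were at 253 and 359 CPM in control and 795 and 1294 CPM in rNLS8, with 8 of 8 higher without overlap, and no marker of either list was at 0. Their part in the Kif1bp result was not tested. In cortical clusters 5 and 7, where 1.78% and 0.284% of genes were called, edgeR called 0 of 21 and 0 of 22 members. At an unadjusted p under 0.05 stood 3 members in each, beside 1872 of 10230 and 1602 of 10208 genes. DESeq2 called 1 member in each, Kif1bp, with 2.89% and 1.43% of all genes called, but gave no adjusted p for 2 and 10 members. Without control replicate 2 the count of called members was 7 in cluster 3, 6 in cluster 5 and 9 in cluster 7, with 30.9%, 25.5% and 22.5% of all genes called. Without control replicate 1 it was 6, 3 and 3, with 14.2%, 8.93% and 6.98%.

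In the fibre tracts Kif5b was called higher in rNLS8. It had 8, 27, 143 and 135 UMI, or 12.3, 39.7, 88.2 and 95.5 CPM, so both rNLS8 sections lay well above both controls, which differed from each other as they did in whole sections. The fold was 1.80 (SE 0.35, adjusted p = 0.0479), and Kif5b was the single member called of 21 tested, where 0.332% of genes were called. It was called without each section in turn, with a fold of 1.21 without control replicate 1 and 2.87 without control replicate 2, where 4 members and 9.1% of all genes were called. DESeq2 gave no adjusted p for 11 of the 21 members, Kif5b among them. Summed myelin markers of these spots were at 58930 and 58460 CPM in control and 53600 and 50190 CPM in rNLS8, with 3 of 8 lower without overlap. Summed microglial markers were at 477 and 592 CPM in control and 828 and 1080 CPM in rNLS8, with 6 of 8 higher without overlap, and no marker of either list was at 0. Their part in the Kif5b result was not tested.

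The other regions gave no calls among the members. EdgeR called 0 of 29 in striatum (0.439% of all genes), 0 of 25 in basal forebrain (0.0093%) and 0 of 22 in meninges (0.639%). At an unadjusted p under 0.05 stood 5, 2 and 3 members, beside 1798 of 12077, 602 of 10757 and 1169 of 10021 genes. Leaving out control replicate 2 gave 4, 2 and 4 calls, with 13.3%, 9.1% and 12% of all genes called. Leaving out control replicate 1 gave 3, 0 and 1, with 6.38%, 0.305% and 2.9%. DESeq2 likewise called 0 in each, but gave no adjusted p for 9 members in striatum and 12 in meninges. Kif5b stood at 7.77, 37.4, 45.2 and 38.1 CPM in striatum, at 2.83, 28.0, 40.3 and 66.8 CPM in basal forebrain and at 7.38, 24.3, 45.5 and 36.1 CPM in meninges. Control replicate 1 was lowest and the rNLS8 sections were the highest in each of these regions, though in striatum control replicate 2 came within 1 CPM of rNLS8 replicate 2. The folds of 0.85, 1.71 and 1.19 became 0.18, 0.79 and 0.72 without control replicate 1, and 2.40, 4.08 and 2.43 without control replicate 2.

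Across the 5 tested regions, 21 members passed the filter in each. Of these, Kif5b, Klc2, Klc4 and Kif1a were higher in both rNLS8 sections than in both controls in all 5 regions, and Kif1bp and Kif3c were lower in all 5. The same held in either direction for 829 of 9153 genes (9.06%). Of 28 members tested in at least 2 of the regions, 3 were higher in some and lower in others without overlap, as were 9.54% of 11983 genes. The regions come from the same 4 sections and are not independent repeats of a difference between them.

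**Figure D2:**
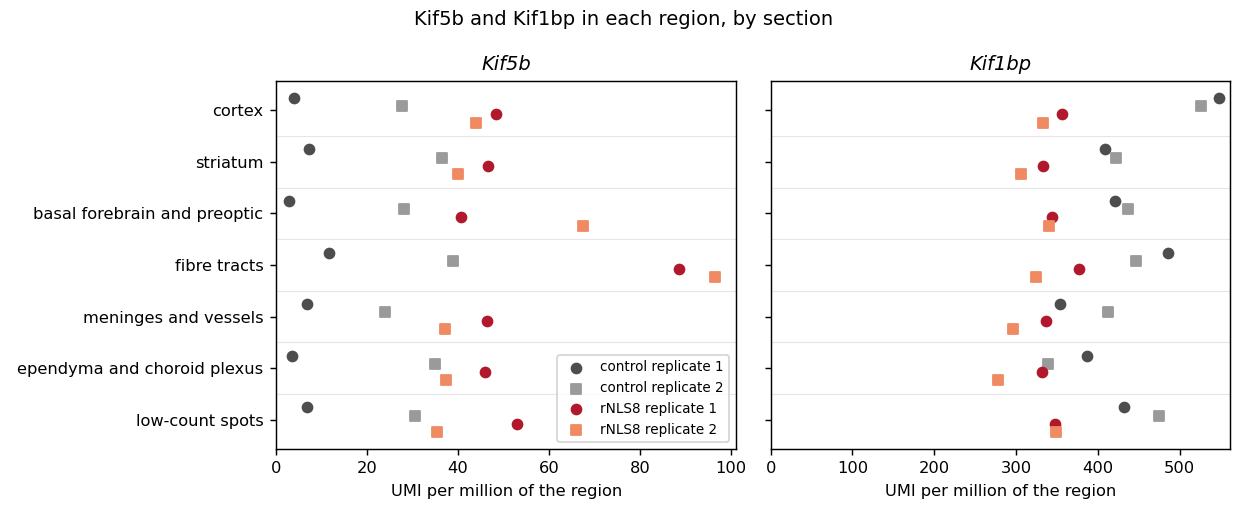
Level of Kif5b and Kif1bp in 7 regions, in CPM of the region's total, with 1 point per section and colour by group. In each of the 5 tested regions the rNLS8 points of Kif5b lie above, and those of Kif1bp below, both control points.

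The effect of rNLS8 was also compared between cortical spots and all other kept spots, in a model with section as a block. EdgeR called 0 of 33 members, where 0.115% of 12992 genes were called. At an unadjusted p under 0.05 stood 3 members and 1343 of all genes. DESeq2 called 0 and gave no adjusted p for 20. Kif1bp, scaled to the plain total, was at 549, 526, 356 and 333 CPM in cortex and at 416, 433, 342 and 320 CPM elsewhere. Its fold was more negative in cortex by 0.34 (SE 0.09, adjusted p = 0.183). Kif5a was at 1178, 928, 1245 and 1159 CPM in cortex and at 1032, 769, 1145 and 1434 CPM elsewhere. Its fold was lower in cortex, with a difference of -0.38 (SE 0.12, adjusted p = 0.258). Leaving out rNLS8 replicate 1 gave 3 calls, Kif1bp, Kif5a and Kif13b, with 4.82% of all genes called.

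Of the 9 mitotic kinesins, 4 passed the filter in whole sections. Kif18a, which dampens chromosome movement as chromosomes line up, had 6, 14, 40 and 44 UMI, or 0.342, 0.592, 1.37 and 2.37 CPM. Both rNLS8 sections lay above both controls (fold 1.95, SE 0.53, adjusted p = 0.213). Kif11, the motor that pushes spindle poles apart, had 9, 37, 49 and 44 UMI, or 0.513, 1.57, 1.68 and 2.37 CPM, with control replicate 1 alone far down and control replicate 2 close to rNLS8 replicate 1 (fold 0.92, SE 0.58, adjusted p = 0.472). Without control replicate 1 its fold was 0.36, and without control replicate 2 it was 1.94. Kif22, which binds chromosome arms, and Kif23, which acts in cell separation, did not follow. They had 37, 42, 41 and 35 UMI and 31, 30, 32 and 27 UMI, with folds of -0.24 (SE 0.38) and -0.25 (SE 0.42) and overlapping groups.

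**Figure D3:**
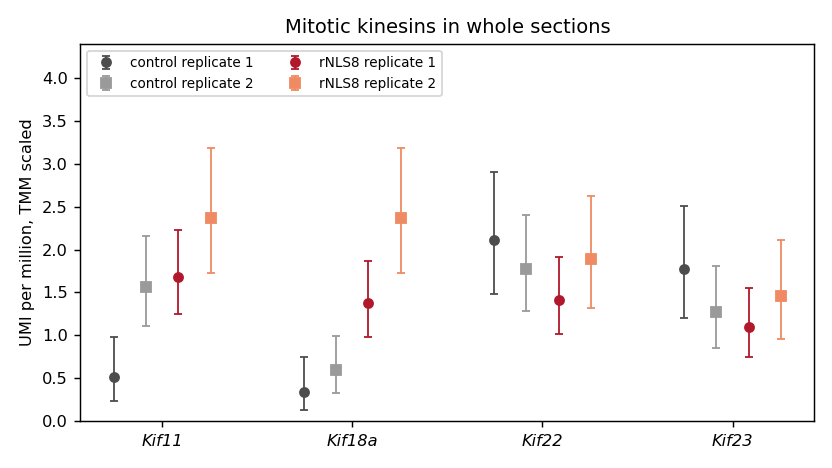
Level of the mitotic kinesins Kif11, Kif18a, Kif22 and Kif23 in whole sections, in TMM-scaled CPM with 1 point per section; bars are 95% Poisson intervals and cover counting error only. Kif18a lies at 0.342 and 0.592 CPM in control and at 1.37 and 2.37 CPM in rNLS8, while the points of Kif22 and Kif23 overlap between groups.

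The cortex held few of these molecules. Kif18a had 1, 2, 14 and 14 UMI (fold 2.84, SE 0.70, adjusted p = 0.0983) and Kif11 had 2, 5, 13 and 13 UMI (fold 1.58, SE 0.63, adjusted p = 0.222), both higher in the rNLS8 sections without overlap. Without control replicate 1 the cortical fold of Kif11 was 1.16, and without control replicate 2 it was 2.21. Kif22 (9, 16, 9 and 6 UMI) and Kif23 (9, 10, 8 and 3 UMI) did not pass the filter on low counts there. Both were lower in the rNLS8 sections without overlap. The filter asks for enough counts in at least 2 sections, which Kif18a and Kif11 reached in the rNLS8 sections alone. The mitotic members tested in cortex were thus only those high in rNLS8. Kif14, Kif15, Kif20a, Kif20b and Kif4 had 4 to 32 UMI over all sections and were not tested. Summed over the 9 mitotic members the whole-section level was 5.13, 6.43, 6.56 and 10.2 CPM, with both rNLS8 sections above both controls by a narrow margin and an exact two-sided permutation p of 0.33, the smallest possible. Summed microglial markers stood at 263 and 354 CPM in control cortex and 648 and 933 CPM in rNLS8 cortex, with 6 of 8 higher without overlap and none at 0. Their part in the Kif18a and Kif11 values was not tested.

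The promoters of mitotic kinesins shared a feature the rule did not use, the cell cycle homology region, a short element found in promoters that are active late in the cell cycle. RefSeq windows of 300 bases on build GRCm38.p6, from 250 bases before to 50 after the start, were at hand for 33 of the 41 members (37 windows). TTTGAA or TTCGAA on either strand occurred in 7 of 8 mitotic windows (87.5%), in 1 of 16 transport windows (6.25%) and in 3 of 13 windows of other members (23.1%), against 19.2% of all 32851 windows. The CCAAT box, read as CCAAT on either strand and counted even where it shares bases with the former motif, occurred in 62.5%, 37.5%, 46.2% and 37.4% of the same sets. Below are the 250 bases before the start of the 2 mitotic members with the highest folds, with either motif in capitals, since 1 holds both and the other neither. They are given 5′ to 3′ on the gene's strand, which is plus for both.
Kif11, chr19:37376132-37376381: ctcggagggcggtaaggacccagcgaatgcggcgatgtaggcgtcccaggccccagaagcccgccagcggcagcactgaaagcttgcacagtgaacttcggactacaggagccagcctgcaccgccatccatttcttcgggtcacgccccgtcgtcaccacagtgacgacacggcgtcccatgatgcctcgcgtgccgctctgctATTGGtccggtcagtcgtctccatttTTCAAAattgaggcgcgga
Kif18a, chr2:109280488-109280737: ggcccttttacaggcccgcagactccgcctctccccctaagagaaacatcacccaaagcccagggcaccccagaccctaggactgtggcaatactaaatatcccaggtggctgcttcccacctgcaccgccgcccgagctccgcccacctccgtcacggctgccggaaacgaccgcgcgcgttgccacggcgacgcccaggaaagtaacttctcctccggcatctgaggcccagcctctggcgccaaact
In Kif11 the first motif begins 19 bases and the CCAAT box 45 bases before the start. A match is a run of letters and no measured site, and its absence from the window of Kif18a says only that these letters are not there.

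Of the 13 other members, 10 passed the filter in whole sections and edgeR called 0, with 1 at an unadjusted p under 0.05. That was Kif1bp, which DESeq2 called. Besides Kif1bp, Kif2a was at 64.6, 63.5, 53.9 and 54.0 CPM, lower in both rNLS8 sections (fold -0.25, SE 0.13, adjusted p = 0.406). Kif19a was at 5.25, 6.26, 8.86 and 8.47 CPM, higher in both (fold 0.59, SE 0.24, adjusted p = 0.326). Kif26a, an atypical kinesin that lacks motor activity, was at 3.37, 3.64, 4.50 and 4.85 CPM, also higher in both (fold 0.41, SE 0.28). Its relative Kif26b, at 56.1, 33.6, 54.4 and 38.9 CPM, differed by replicate number more than by group. Kif27 was at 5.93, 6.05, 5.32 and 4.04 CPM, lower in both rNLS8 sections (fold -0.35, SE 0.28). Kif6, Kif7, Kif9 and Kif24 had 93 to 271 UMI in all and overlapping groups. Kif12 and Kif2b had 0 UMI in every section, and Kif28 had 10 in all.

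The authors' deposited tables give Moran's I for each gene, a score that rises where neighbouring spots have like counts. Over genes seen in at least 10% of spots of each section, limma tested 18 members and called 0, where 0.0316% of 6321 genes were called (B2m and Six3). At an unadjusted p under 0.05 stood 4 of the 18 members, beside 905 of the 6321 genes. Kif5a had scores of 0.120, 0.123, 0.183 and 0.264, higher in both rNLS8 sections (difference 0.102, SE 0.033, adjusted p = 0.335). Kif5c had 0.117, 0.187, 0.0771 and 0.0461, lower in both (difference -0.0903, SE 0.028, adjusted p = 0.335). The 2 neuronal heavy chains thus lay on opposite sides of their controls in patterning, while their whole-section levels overlapped. Kif1bp had 0.136, 0.0708, 0.0508 and 0.0230 (difference -0.0665, SE 0.026) and Klc1 had 0.102, 0.0716, 0.0422 and 0.0347 (difference -0.0483, SE 0.017), both lower in rNLS8 without overlap. Scores were lower in rNLS8 for 11 of the 18 members, with a median difference of -0.00786, and for 5154 of all 6321 genes, with a median of -0.0119.

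**Figure D4:**
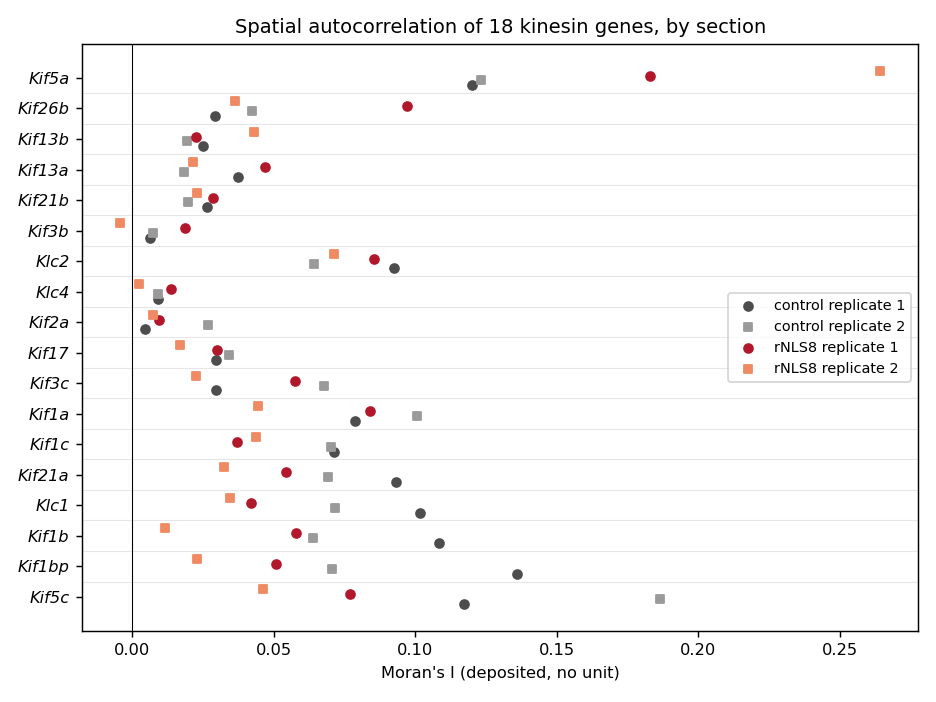
Moran's I of 18 kinesins in the deposited tables, with 1 point per section and colour by group. The rNLS8 points of Kif5a, at 0.183 and 0.264, lie above its controls, and those of Kif5c, Kif1bp and Klc1 lie below theirs.

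Partners of the kinesins were read from 4 lists in the cortex, in which the 3 genes of each list with the smallest p are named. Of 16 adaptors and cargo links, 1 was called lower and 0 higher. This was Kifap3, the subunit that completes the Kif3a and Kif3b motor, at 373, 375, 206 and 194 CPM, with the groups far apart (fold -0.90, SE 0.13, adjusted p = 0.0439). The call was lost without rNLS8 replicate 1 (adjusted p = 0.189) or rNLS8 replicate 2 (adjusted p = 0.505). Its motor partners Kif3a and Kif3b had cortical folds of 0.55 (SE 0.34) and 0.10 (SE 0.14), and edgeR called neither. That of Kif3a was 0.095 without control replicate 1 and 1.22 without control replicate 2, where it was called (adjusted p = 0.0057). Rhot2, which ties mitochondria to motors, and Kidins220 had folds of -0.47 and 0.62.

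Of the 26 genes of dynein and dynactin, the motor that runs the other way, edgeR called 0 in the cortex, with 10 at an unadjusted p under 0.05. Of all 12311 genes tested in cortex, 2553 stood at that level. Of the 26, DESeq2 called 5, 2 higher and 3 lower, among them Dynll2 and Actr1a. The 26 genes had 15 positive and 11 negative folds and a median of 0.10. Dynll2, Actr1a and Hook2 had folds of -0.71, 0.59 and 0.66, with adjusted p of 0.0810 to 0.0874. Of 21 tubulins and microtubule-associated proteins 18 had negative folds, with a median of -0.25 against 0.02 over all genes. EdgeR called 0, with 7 at an unadjusted p under 0.05, and DESeq2 called 5, all lower, among them Tuba1b, Stmn2 and Map2. Summed excitatory neuron markers were at 9709 and 8392 CPM in control cortex and 6599 and 6998 CPM in rNLS8 cortex, with 2 of 5 lower without overlap. Astrocyte markers were at 1786 and 1591 against 2026 and 2626 CPM, with 4 of 7 higher, and the microglial markers were higher as given above. Their part in the shift of this list was not tested. The named ones were Tuba1b (-1.69), Stmn2 (-0.62) and Map2 (-0.69). The proliferation list had 8 tested members of 18 listed, 6 with positive folds. EdgeR called 0, with 3 at an unadjusted p under 0.05, and DESeq2 called 0. Cdk1, Mki67 and Nusap1 had folds of 2.05, 1.94 and 1.41, beside those of Kif18a and Kif11. The UMI were 2, 6, 19 and 22 for Cdk1, 9, 5, 25 and 41 for Mki67, and 9, 9, 21 and 37 for Nusap1. Like Kif18a and Kif11, these 3 reached the filter's count in the rNLS8 sections alone and were tested only because of them. The number of positive folds and the median of the list are thus partly set by the filter. The 2 negative folds were those of Mcm5 (-0.68), lower in rNLS8 without overlap, and Ccna2 (-0.34). The median fold of the list was 0.60 in whole sections (11 tested), 0.51 in cortex and 0.17 in striatum (8 tested). It was 0.355 in fibre tracts (4 tested) and -0.58 in basal forebrain (2 tested). In cortical clusters 3, 5 and 7 it was 1.29 (4 tested), -0.37 (1 tested) and -0.83 (2 tested). EdgeR called 1 gene of the list higher in cluster 3, where 4.1% of all genes were called.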

How the data were processed

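The authors deposited raw UMI counts per gene and spot, made with Space Ranger 2.1.0 per the file headers on mm10 per the submitters' processing notes, and a score, Moran's I per gene and section. The positions of the spots on the array were other deposited values. The probe set is not given in the sources used here.

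Counts were summed per section over kept spots and per Leiden cluster (leidenalg 0.10.2, 30 components, 15 neighbours, resolution 1). Regions were named by marker lists, and the cluster of low-count spots stayed unnamed. Of 3 gene selections for clustering the last was kept from the clusters' make-up over sections, as were the naming limits, before any fit on kinesins but after the data were seen; the first 2 split cortex and striatum by group. EdgeR 4.0.16 (R 4.3.3; TMM, filterByExpr) fitted all genes of all 4 sections by group alone, DESeq2 1.42.0 was an alternative, and limma 3.58.1 compared the scores with a trend by mean count. Scripts were tested on simulated data. Python 3.11.15, numpy 2.4.6, scipy 1.17.1 and scikit-learn 1.9.0 were used.

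Members, classes, lists and tests were chosen with earlier results of these data known. By rule every tested transport member, other members with at least 100 UMI in all or called, and 3 genes per partner list are named. Other designs, filters, regions and omitted sections were tried as alternatives. Intervals cover counting error only.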

Additional observations from a re-analysis of the deposited data

Results flagged for a closer look

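For 3 members both rNLS8 sections lay on one side of both controls in some regions and on the other side elsewhere, of 28 members tested in 2 or more of the 5 regions. The same held for 9.54% of 11983 genes. The differences between regions were not tested and no value named here was called (adjusted p 0.162 to 0.957). Kif17, the dendritic kinesin-2 motor, was higher in fibre tracts, at 27.6, 19.1, 27.7 and 29.0 CPM (log2 fold 0.28), where control replicate 1 lay close to the rNLS8 sections. It was lower in cortex, at 46.1, 46.8, 28.3 and 36.0 CPM (fold -0.53), in striatum, at 68.7, 67.0, 47.5 and 55.4 CPM (fold -0.41), and in meninges, at 31.0, 41.1, 24.7 and 20.3 CPM (fold -0.73).

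Kif19a, the ciliary motor, was higher in striatum, at 3.69, 5.50, 8.39 and 7.06 CPM (fold 0.74), and in fibre tracts, at 10.7, 16.2, 21.6 and 32.5 CPM (fold 0.99). It was lower in basal forebrain, at 8.08, 7.76, 5.90 and 1.86 CPM (fold -0.66), where rNLS8 replicate 2 had 1 UMI. Kif26a was higher in striatum, at 1.94, 2.62, 5.43 and 3.53 CPM (fold 1.00), and in basal forebrain, at 4.04, 4.31, 5.16 and 5.57 CPM (fold 0.33), and lower in meninges, at 11.8, 8.38, 3.19 and 7.63 CPM (fold -0.74).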

How the results depend on the processing

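With 2 sections per group, the number of called members moved most when a section was left out. Leaving out each section in turn gave 0 to 7 called members in whole sections, 0 to 7 in cortex, 0 to 4 in striatum, 0 to 2 in basal forebrain, 1 to 4 in fibre tracts, 0 to 4 in meninges, 1 to 7 in cortical cluster 3, 0 to 6 in cluster 5 and 0 to 9 in cluster 7. The highest counts came without control replicate 2, where 13.5% (whole sections), 30.7% (cortex) and 9.1% to 30.9% (other regions and clusters) of all genes were called. Leaving out each section gave 0 to 3 for the difference between cortex and the rest and 0 to 1 for Moran's I (Kif26b, without rNLS8 replicate 2). DESeq2 called 1 member in whole sections, 1 in cortex, 1 in cluster 5, 1 in cluster 7 and 0 in fibre tracts, where its adjusted p for Kif5b was not given. The shares of all genes that it called were 3.86%, 5.86%, 2.89%, 1.43% and 0.439%, in that order. DESeq2's size factors in edgeR gave 1 in cluster 5, with 2.28% of all genes called. With no filter on low counts, edgeR called 1 in cortex, 3 in striatum, 1 in basal forebrain, 1 in meninges, 3 in cluster 3, 2 in cluster 5, 2 in cluster 7 and 1 (Kif5a) for the difference between cortex and the rest. For all genes these shares were 5.32%, 4.63%, 0.242%, 1.99%, 10.6%, 5.35%, 2.66% and 1.23%, in the same order. At Leiden resolution 0.5 fibre tracts formed no cluster of their own, and 14 instead of 8 members lay above their section in ependyma.

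The sections share replicate numbers, which the labels do not say pair them. The deviations of the replicate 1 sections correlated at -0.104 in whole sections and -0.135 in cortex. The replicate block gave 2 called members in cortex (Kif1bp and Kif5b), 2 in cluster 3 and 2 in cluster 5, and 78 genes in whole sections, none a member. With the block 4.56% of all genes were called in cortex, 5.61% in cluster 3 and 4.66% in cluster 5. The crossed pairing, chosen after seeing the data, gave 2 members in cortex, where 8.12% of all genes were called, and 216 genes in whole sections.

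Among members with at least 100 UMI in all, folds in whole sections and cortex that changed sign with all 4 sections, none of them called, were Kif21a in whole sections with no filter (0.00052), the block (0.0096) and the crossed pairing (0.0099), and in cortex Kif26a and Kif21a with marker sums per spot (0.41 and -0.038) and Kif27 with DESeq2 (-0.0027). In the other comparisons there were 6 such changes, of folds of at most 0.18 in size. Kif7, with under 100 UMI, changed sign in whole sections with regions reweighted (-0.18) and ranged from -0.64 to 0.59 over the omitted sections. Over the omitted sections, whole-section folds of the other members that changed sign ranged from -0.60 to 0.21 for Kif24, -0.28 to 0.48 for Kif26b, -0.62 to 0.17 for Kif6, -0.15 to 0.59 for Kif9, -0.0042 to 0.52 for Kif5a, -0.38 to 0.046 for Kif5c, -0.096 to 0.26 for Kif16b, -0.21 to 0.00064 for Kif1c and -0.19 to 0.19 for Kif21a. In cortex they ranged from -0.13 to 0.59 for Kif19a, -0.47 to 0.22 for Kif26a, -0.29 to 0.61 for Kif26b, -0.17 to 0.19 for Kif27, -0.20 to 0.27 for Kif5a, -0.26 to 0.46 for Kif16b and -0.13 to 0.20 for Kif21a. The cause of these changes was not tested. A selected set of gene folds refitted with all 4 sections was also counted. In it 609 kept direction and side of the threshold, 42 passed it and 6 changed sign. These 6 are the changes named above for whole sections and cortex. The set leaves out Kif7 and the 6 changes in the other comparisons.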
